A study of Mus musculus with 6 samples.

Results

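Transcript levels of 10 receptors of the tumour necrosis factor (TNF) family were followed in 4T1 cells that express METTL7A1 and in mock cells. The 10 genes, of 48587 listed in the table of counts, were chosen by gene symbol: the neighbours Tnfrsf22, Tnfrsf23 and Tnfrsf26 on chromosome 7, the death receptors Tnfrsf10b, Fas, Tnfrsf1a and Tnfrsf21, and the receptors Tnfrsf1b, Tnfrsf12a and Tnfrsf9. They were selected from genes whose results in this contrast were already known, so their own values are a description and carry no test.

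TNF receptors are membrane proteins that bind trimeric ligands through cysteine-rich repeats. Death receptors carry an intracellular death domain that recruits adaptors such as FADD or TRADD and can start caspase activation. Decoy receptors bind a death ligand without passing the signal on. In the mouse, Tnfrsf10b encodes the death receptor for the ligand TRAIL (gene Tnfsf10), whereas Tnfrsf22 and Tnfrsf23 encode receptors that bind TRAIL and lack a death domain. Tnfrsf26 is their relative in the same cluster and has no established ligand. Receptors without a death domain, such as TNFR2 (Tnfrsf1b), Fn14 (Tnfrsf12a) and 4-1BB (Tnfrsf9), recruit TRAF adaptors instead.

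4T1 is a mouse mammary carcinoma line. The METTL7A1 group was stably transfected with full-length, FLAG-tagged Mettl7a1 cDNA, driven by the cytomegalovirus promoter of pBICEP-CMV-2, and the mock group carried the empty vector. Both groups were listed as kept under 350 µg/ml G418. Each group had 3 libraries, given as biological triplicates, with 18386780 to 28459338 counts. Whether the lines were clonal or pools, and whether the triplicates were separate transfections, is not given in the sources used here, so the spread between libraries may be that of cultures of 1 line. Mettl7a1 was at 6355, 11358 and 10398 counts in METTL7A1 replicates 1, 2 and 3 and at 30, 30 and 29 counts in the mock libraries. The epithelial markers Krt8, Krt18, Epcam and Cdh1 had 2063 to 19086 counts in each library. The 5 immune markers had at most 8 counts, with Cd3e at 0, and the 4 stromal and endothelial markers had at most 22. Of these, Cdh5, an endothelial cadherin, was at 7 to 15 counts in METTL7A1 cells and at 1 to 3 in mock cells, and its part in any result was not tested.

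All 10 receptors passed the abundance filter of 1 cpm (counts relative to the TMM-scaled total of the library) in 3 libraries. Tnfrsf9 passed only through the METTL7A1 group. Called genes are those with an adjusted p under 0.05 in the quasi-likelihood test of edgeR, fitted to all 13166 genes that passed. By this rule 7 of the 10 receptors were called, 5 higher and 2 lower in METTL7A1 cells, in a contrast where 42.1% of all tested genes were called (21.1% higher and 21% lower). Under stricter thresholds, an adjusted p under 0.01 and a log2 fold change over 1.5 in either direction, 2 were called (Tnfrsf26 and Tnfrsf9), against 2.48% of all genes. The 3 libraries of one group did not overlap those of the other for 8 of the 10, against 51.6% of all genes. The median log2 fold change (METTL7A1 over mock) of the 10 was 0.29, beside -0.03 for all tested genes.

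**Figure D1:**
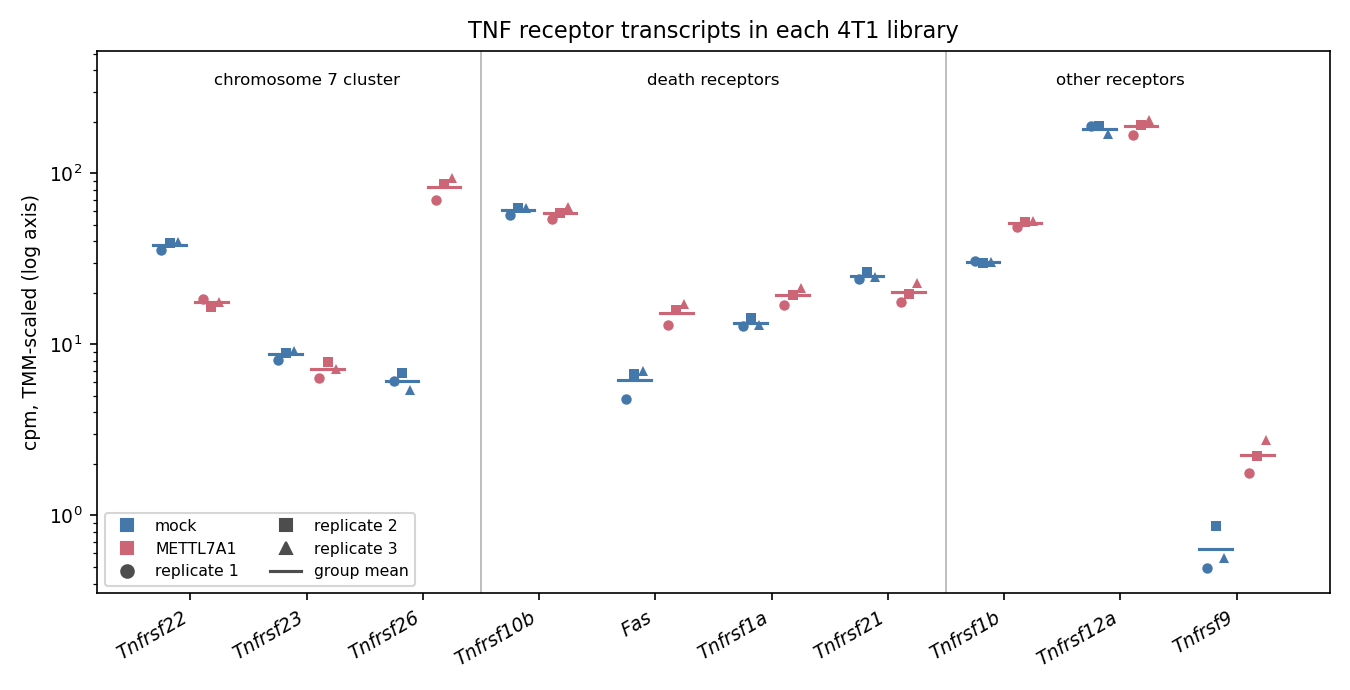
Level of each of the 10 receptors in cpm (log axis) in every library, blue for mock and red for METTL7A1, with the replicate given by the symbol and the group mean by a line. Tnfrsf26 goes from a mean of 6.08 cpm in mock to 83.4 in METTL7A1 cells while Tnfrsf22 beside it goes from 37.9 to 17.6, and Tnfrsf10b and Tnfrsf12a overlap between the groups.

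The 3 genes of the chromosome 7 cluster went different ways. Tnfrsf26 (mm10, chromosome 7, 143607659 to 143628722, minus strand) was at 6.07, 6.77 and 5.39 cpm in mock replicates 1, 2 and 3, from 111, 164 and 134 counts. In METTL7A1 replicates 1, 2 and 3 it was at 70.1, 86.5 and 93.6 cpm, from 1300, 2555 and 2309 counts. The lowest METTL7A1 library thus lay far above the highest mock library. The group means were 6.08 ± 0.687 and 83.4 ± 12.1 cpm (SD, n = 3 each), which is 13.7-fold higher, with a log2 fold change of 3.78 (SE 0.13), the largest among the 10. In bulk RNA, a change in the number of cells that express a receptor and a change in its RNA per cell cannot be told apart.

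Tnfrsf22 (chromosome 7, 143634806 to 143649661, minus strand), a TRAIL decoy, was the most abundant of the 3 in mock cells, at 35.5, 38.9 and 39.4 cpm in replicates 1, 2 and 3. It was at 18.5, 16.6 and 17.6 cpm in the METTL7A1 libraries. All METTL7A1 libraries were below all mock libraries, with means of 37.9 ± 2.15 and 17.6 ± 0.947 cpm (SD, n = 3 each), 2.15-fold lower, and a log2 fold change of -1.12 (SE 0.08).

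Tnfrsf23 (chromosome 7, 143667614 to 143685872, minus strand), the other decoy, was at 8.15, 8.95 and 9.14 cpm in mock replicates 1, 2 and 3 and at 6.36, 7.85 and 7.22 cpm in the METTL7A1 libraries. The groups did not overlap, but METTL7A1 replicate 2 was close to mock replicate 1. The log2 fold change was -0.29 (SE 0.13) and was not called.

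Tnfrsf22 and Tnfrsf23 are near copies, so their counts may not be fully apart. Their coding sequences, 594 and 528 bases long in the GENCODE M21 transcript used for each gene, were identical at 479 of 528 aligned bases (90.7%), with a longest run in common of 102 bases. The other 20 pairs among the cluster and the death receptors were 57.4% to 65.2% identical, the pairs of Tnfrsf26 with the decoys included, and shared no run over 14 bases. In the Tnfrsf23 transcript whose exon length equals that of the table, 559 of 1446 stretches of 31 bases (38.7%) also occurred in Tnfrsf22. No stretch of Tnfrsf26 occurred in another of the 10 genes. Over all transcripts of Tnfrsf22, 1554 of 4057 stretches (38.3%) occurred in another gene, and 1033 of these in another of the 10. For Tnfrsf10b, 587 of 5445 (10.8%) occurred in other genes, all outside the 10. Summing the decoys does not cover sharing with genes outside the 10. With the counts of both decoys summed, the decoy pair was at 46.7 ± 2.68 cpm in mock and 24.7 ± 0.223 cpm in METTL7A1 cells (SD, n = 3 each). The log2 fold change of the sum was -0.92 (SE 0.07). This sum was added after the shared sequence had been seen.

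The stretches below show how close the decoys are and how far Tnfrsf26 stands from them. They are aligned parts of the coding sequence around the longest common run, read from the GENCODE M21 transcripts of GRCm38, each from exon 4 to exon 6 on the minus strand of chromosome 7. They cover coding bases 376 to 525 of Tnfrsf22 (143638423 to 143640813), 346 to 495 of Tnfrsf23 (143668579 to 143670893) and 313 to 461 of Tnfrsf26 (143611850 to 143617902). Capitals in Tnfrsf23 and Tnfrsf26 mark bases equal to the aligned base of Tnfrsf22.
Tnfrsf22: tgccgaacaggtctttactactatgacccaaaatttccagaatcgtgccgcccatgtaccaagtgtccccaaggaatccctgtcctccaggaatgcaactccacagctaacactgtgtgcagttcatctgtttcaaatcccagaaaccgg
Tnfrsf23: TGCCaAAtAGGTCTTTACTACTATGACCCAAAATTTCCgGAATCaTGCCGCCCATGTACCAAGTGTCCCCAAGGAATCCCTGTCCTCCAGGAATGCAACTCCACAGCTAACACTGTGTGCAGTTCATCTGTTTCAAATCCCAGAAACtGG
Tnfrsf26: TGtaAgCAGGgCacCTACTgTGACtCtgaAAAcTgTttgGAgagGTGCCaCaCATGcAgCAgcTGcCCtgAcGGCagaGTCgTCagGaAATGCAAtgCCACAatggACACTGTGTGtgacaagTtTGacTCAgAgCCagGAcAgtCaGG
In this window Tnfrsf23 matched Tnfrsf22 at 145 of 150 bases (96.7%) and Tnfrsf26 matched it at 89 of 144 aligned bases (61.8%). A read within the common run fits both decoys, and Tnfrsf26 shares no run of such length with either. Both Tnfrsf23 and Tnfrsf26 share exon bases (164 and 107) with E230032D23Rik on the opposite strand, which had at most 13 counts in any library.

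To compare levels between genes, counts were divided by exon length and scaled to a common sum within each library (TPM). Tnfrsf22 made up 53.2%, 53% and 54.3% of the summed TPM of the cluster in mock replicates 1, 2 and 3, and 14.4%, 10.9% and 10.9% in METTL7A1 replicates 1, 2 and 3. The share of Tnfrsf26 was 11.9%, 12.1% and 9.73% in mock and 71.5%, 74.4% and 76.2% in METTL7A1 cells. Tnfrsf23 held 35.2 ± 0.616% in mock and 13.9 ± 0.979% in METTL7A1 cells (SD, n = 3 each). The leading transcript of the cluster was therefore Tnfrsf22 in each mock library and Tnfrsf26 in each METTL7A1 library. In counts, Tnfrsf22 was 6.3 ± 0.876 times Tnfrsf26 in mock and 0.215 ± 0.0428 times in METTL7A1 cells (SD, n = 3 each).

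**Figure D2:**
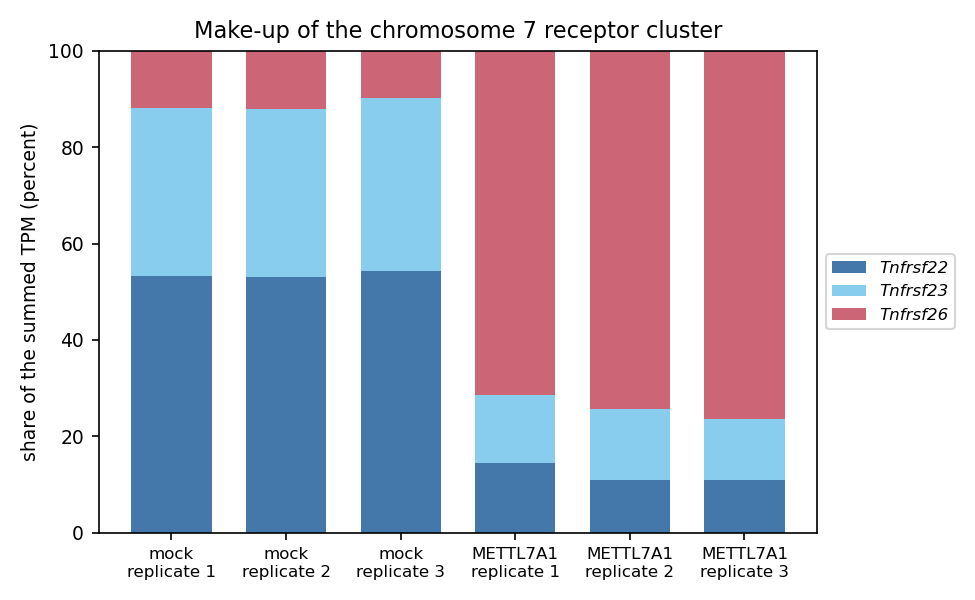
Share of Tnfrsf22, Tnfrsf23 and Tnfrsf26 in the summed TPM of the chromosome 7 cluster, in percent, with one bar per library. Tnfrsf26 holds at most 12.1% in the mock libraries and at least 71.5% in the METTL7A1 libraries.

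The death receptors also went different ways, over a narrower range. Tnfrsf10b (chromosome 14, 69767472 to 69784403, plus strand), the TRAIL death receptor, was at 57.1, 63 and 62.7 cpm in mock replicates 1, 2 and 3 and at 54.3, 58.2 and 63.4 cpm in METTL7A1 replicates 1, 2 and 3. The groups overlapped, and the log2 fold change of -0.06 (SE 0.08) was not called.

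Fas (chromosome 19, 34290659 to 34327770, plus strand), the receptor of FAS ligand, was at 4.81, 6.68 and 7 cpm in mock and at 12.9, 15.8 and 17.1 cpm in METTL7A1 replicates 1, 2 and 3. Each METTL7A1 library was above each mock library. The means of 6.17 ± 1.18 and 15.3 ± 2.17 cpm (SD, n = 3 each) were 2.48-fold apart, with a log2 fold change of 1.3 (SE 0.16), the largest among the death receptors.

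Tnfrsf1a (chromosome 6, 125349723 to 125362484, plus strand) encodes TNFR1, the TNF receptor with a death domain. It was at 12.8, 14.2 and 13 cpm in mock and at 17, 19.4 and 21.3 cpm in METTL7A1 replicates 1, 2 and 3, again without overlap. The METTL7A1 mean was 1.45-fold higher, with a log2 fold change of 0.53 (SE 0.1).

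Tnfrsf21 (chromosome 17, 43016555 to 43089188, plus strand), known as DR6, was at 24.1, 26.5 and 24.8 cpm in mock and at 17.7, 19.8 and 22.8 cpm in METTL7A1 replicates 1, 2 and 3. It was lower in each METTL7A1 library, 1.25-fold on average, with a log2 fold change of -0.32 (SE 0.1). Its call was lost without METTL7A1 replicate 1 (-0.23), METTL7A1 replicate 2 (-0.31), mock replicate 1 (-0.33) or mock replicate 2 (-0.28). It was also lost, at -0.11, when the median change of its 40 nearest genes along the chromosome was subtracted (the neighbour subtraction).

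The cluster and the death receptors were then set side by side within each library, as the mean log2 cpm of the 3 cluster genes minus that of the 4 death receptors. This difference was -0.5, -0.58 and -0.64 in mock replicates 1, 2 and 3 and -0.09, -0.12 and -0.24 in METTL7A1 replicates 1, 2 and 3, so the groups did not overlap. The group means were -0.57 ± 0.07 and -0.15 ± 0.08 (SD, n = 3 each), 0.42 apart on the log2 scale. The cluster mean was 0.79 higher and the death receptor mean 0.36 higher in METTL7A1 cells. The mean hides the split inside each set, since the median log2 fold change was -0.29 in the cluster (1 called higher, 1 lower) and 0.24 among the death receptors (2 called higher, 1 lower). For the decoys against their partner, the summed TPM of Tnfrsf22 and Tnfrsf23 was 0.773, 0.77 and 0.787 times that of Tnfrsf10b in mock replicates 1, 2 and 3. It was 0.508, 0.505 and 0.453 times in METTL7A1 replicates 1, 2 and 3, with the decoys lower and Tnfrsf10b close to its mock level.

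Of the 3 receptors outside both sets, 2 were called higher and 1 was not called. Tnfrsf1b (chromosome 4, 145213463 to 145246870, minus strand), which encodes TNFR2, was at 30.5, 30 and 30.1 cpm in mock and at 48.7, 52.2 and 52.3 cpm in METTL7A1 replicates 1, 2 and 3. The groups did not overlap. Their means were 30.2 ± 0.289 and 51.1 ± 2.08 cpm (SD, n = 3 each), 1.69-fold apart, and the log2 fold change was 0.76, with the smallest SE (0.07) among the 10. Tnfrsf12a (chromosome 17, 23675447 to 23677449, minus strand), the receptor of the ligand TWEAK, was at 190, 188 and 170 cpm in mock and at 168, 192 and 206 cpm in METTL7A1 replicates 1, 2 and 3. Its groups overlapped and its log2 fold change of 0.05 (SE 0.09) was not called.

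Tnfrsf9 (chromosome 4, 150920155 to 150946102, plus strand), the co-stimulatory receptor 4-1BB, was the rarest of the 10. It had 9, 21 and 14 counts in mock and 33, 66 and 68 counts in METTL7A1 replicates 1, 2 and 3, or 0.492, 0.867 and 0.564 cpm and 1.78, 2.23 and 2.76 cpm. Even the highest mock library was below the lowest METTL7A1 library in cpm. The log2 fold change was 1.8 (SE 0.29), with the widest error among the 10 at these low counts. With any METTL7A1 library left out the gene no longer passed the filter, which asks for 3 libraries, and was not tested.

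The level of the 10 genes varied together with the library. METTL7A1 replicate 1 was the lowest of its group for 9 of the 10, at a median of 0.887 of the group mean, whereas over all tested genes its median was 0.999. Mock replicate 1 was the lowest of its group for 7 of the 10. Without METTL7A1 replicate 1, 9 of the 10 were tested and 5 were called, while 5373 of all genes were called, against 5537 with every library. The difference between the cluster and the death receptors was then 0.39.

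Ordered by TPM, Tnfrsf12a led in both groups, at 375 ± 49 in mock and 428 ± 38.5 in METTL7A1 cells (SD, n = 3 each). In mock cells Tnfrsf10b followed at 38.5 ± 8.79, then Tnfrsf22, Tnfrsf1b, Tnfrsf21, Tnfrsf1a and Tnfrsf23 between 18 ± 4.25 and 11.9 ± 2.86, whose neighbouring ranks overlapped. Next came Fas at 6.97 ± 2.46, which overlapped Tnfrsf23, then Tnfrsf26 at 3.73 ± 0.555 and Tnfrsf9 at 0.515 ± 0.179 TPM. In METTL7A1 cells Tnfrsf26 moved to the second rank at 56.5 ± 7.61, above Tnfrsf10b at 40.3 ± 2.44 and Tnfrsf1b at 29.2 ± 1.48 TPM. Tnfrsf1a and Fas overlapped at 19.5 ± 1.88 and 18.5 ± 2.44 TPM. Tnfrsf21, Tnfrsf23 and Tnfrsf22 followed between 12.1 ± 1.28 and 9.08 ± 0.455 TPM. Tnfrsf23 overlapped both of the others, which did not overlap each other. Tnfrsf22 thus moved from rank 3 to rank 9. Tnfrsf9 remained the last, at 1.97 ± 0.385 TPM. Within libraries the order of ranks was tighter than between them: of the 9 pairs of neighbouring ranks in each group, 8 held in all 3 libraries.

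Promoter sequence was examined for the receptors found in the RefSeq table (GRCm38.p6), which matched 7 of the 10: Tnfrsf23, Fas, Tnfrsf1a, Tnfrsf21, Tnfrsf1b, Tnfrsf12a and Tnfrsf9, the last with 2 starts. The 250 bases before each start were searched on both strands for AP-1 (TGACTCA), NF-kB, ISRE (GAAANNGAAA), C/EBP-ATF (TGATGCAA) and the GC box (GGGCGG). Of all 32851 promoters in the table, 4.46% held the AP-1 letters, 7.25% NF-kB, 2.98% ISRE, 0.791% C/EBP-ATF and 32.7% a GC box. Fas held an AP-1 match and a GC box, and 1 start of Tnfrsf9 held an AP-1 match beside 2 overlapping NF-kB matches. Both promoters are printed because these genes were higher in METTL7A1 cells and held the AP-1 letters, with motif matches in capitals, read 5′ to 3′ on the plus strand: Fas at chr19:34290409-34290658, with AP-1 at -211 to -205 and the GC box at -47 to -42, and Tnfrsf9 at chr4:150927749-150927998, with NF-kB at -43 to -34 and -42 to -33 and AP-1 at -15 to -9.
Fas: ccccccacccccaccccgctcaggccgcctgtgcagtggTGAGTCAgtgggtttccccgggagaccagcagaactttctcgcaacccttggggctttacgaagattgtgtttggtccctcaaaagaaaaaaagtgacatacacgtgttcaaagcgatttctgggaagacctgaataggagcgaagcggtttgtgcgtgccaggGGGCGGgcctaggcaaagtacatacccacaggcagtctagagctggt
Tnfrsf9: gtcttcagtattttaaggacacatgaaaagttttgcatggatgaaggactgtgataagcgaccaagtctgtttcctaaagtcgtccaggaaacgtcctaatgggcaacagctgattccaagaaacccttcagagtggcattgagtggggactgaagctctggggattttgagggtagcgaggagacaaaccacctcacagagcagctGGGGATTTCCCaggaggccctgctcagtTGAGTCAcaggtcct
Tnfrsf1b held an ISRE match at -10 to -1 and 2 GC boxes, Tnfrsf12a held 5 GC boxes, and Tnfrsf23, Tnfrsf21 and the other start of Tnfrsf9 held 1 each. Tnfrsf1a held none of the 5 motifs. Tnfrsf1a and Tnfrsf1b were also called higher in METTL7A1 cells but held no AP-1 match. Tnfrsf22, Tnfrsf26 and Tnfrsf10b had no promoter entry and could not be searched. A match describes letters only and is not a site in use.

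The genes around the cluster were examined next, since Tnfrsf26 was called higher and Tnfrsf22 beside it lower. The cluster spans 78.2 kb and lies by the imprinted Kcnq1 domain. Within 500 kb of it 37 other genes were listed, of which 9 passed the filter and 4 were called, near the share of 42.1% among all genes, 1 higher and 3 lower, with a median log2 fold change of -0.25. Cars, which encodes a cysteinyl-tRNA synthetase and lies 7.6 kb from the cluster on the side of Tnfrsf26, rose from 68.2 ± 2.52 to 117 ± 9.92 cpm (SD, n = 3 each; log2 fold change 0.79, SE 0.08, adjusted p = 2.06e-05). On the same side Nap1l4, a nucleosome assembly protein gene 58.6 kb away, fell by 0.32 on the log2 scale (SE 0.07, adjusted p = 0.00364). On the side of Tnfrsf23, Osbpl5, which encodes an oxysterol-binding protein and lies 2.9 kb away, fell by 0.25 (SE 0.07, adjusted p = 0.0135), a call lost without METTL7A1 replicate 3 (-0.2) or mock replicate 1 (-0.22), with the neighbour subtraction (-0.13) and without the abundance filter (-0.22). Shank2, a scaffold protein gene 316.1 kb away, fell by 1.01 (SE 0.17, adjusted p = 0.00088). Among the imprinted genes here, Phlda2 (-0.33, SE 0.15, adjusted p = 0.103) and Kcnq1ot1 (-0.26, SE 0.2, adjusted p = 0.344) were not called. Kcnq1, Cdkn1c and Slc22a18 were under the filter. Phlda2 was called without mock replicate 3 (-0.46). Kcnq1ot1 stood at 23071 counts in that library against 10559 and 12085 in mock replicates 1 and 2, and without it the difference was 0.06. Mrgpre (0.17), Nadsyn1 (0.08) and Dhcr7 (0.03) were not called either. No tested neighbour reached the log2 fold change of Tnfrsf26.

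**Figure D3:**
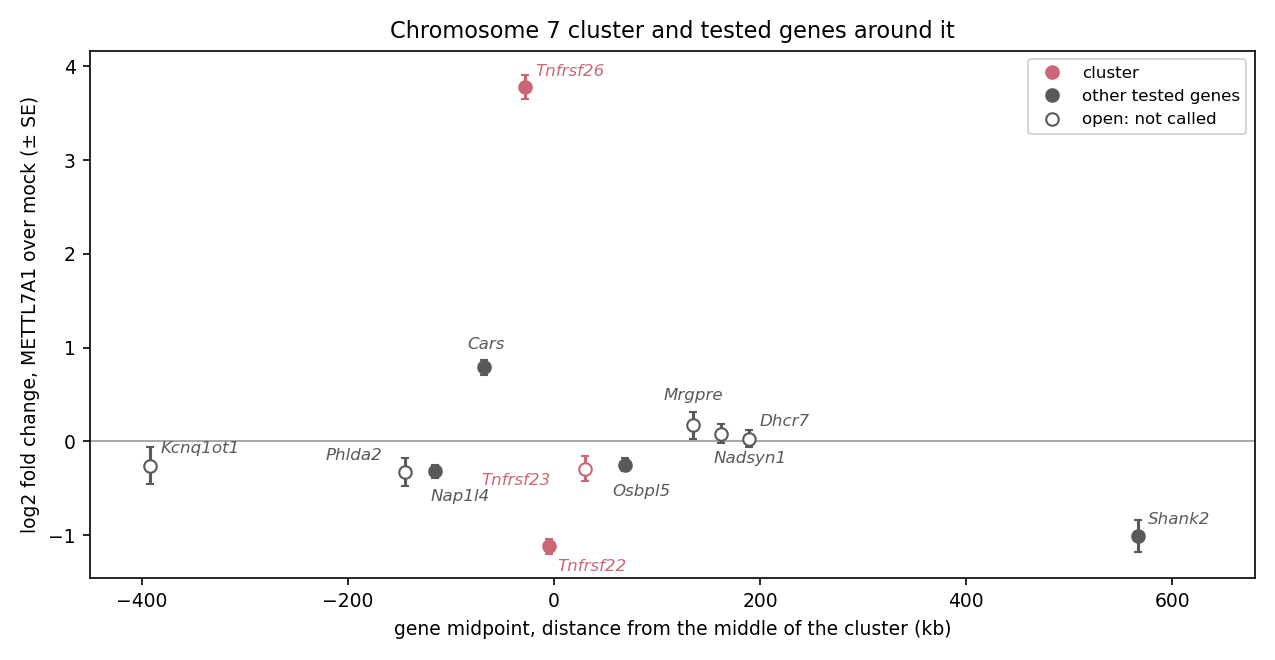
Log2 fold change (METTL7A1 over mock, bars give SE) of the chromosome 7 cluster in red and of the tested genes around it in grey, by the distance of the gene's midpoint from the middle of the cluster in kb, with open points for genes that were not called. Tnfrsf26 stands at 3.78, the next highest gene is Cars at 0.79, and Tnfrsf22 is the lowest at -1.12.

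The rest of the pathway was read from lists of all further TNF receptors, the ligands, death signalling genes and the TRAF and ubiquitin genes. Of 18 further receptors 7 were tested and 3 called (42.9%, close to the 42.1% of all genes). Tnfrsf19, a receptor of embryonic and stem cell compartments, was at 41, 46 and 27 counts in mock and at 8 counts in each METTL7A1 library (log2 fold change -2.35, SE 0.36, adjusted p = 0.000416). Tnfrsf14, which encodes the receptor HVEM, rose by 1.02 on the log2 scale (SE 0.28, adjusted p = 0.0126) from 11, 14 and 20 to 25, 33 and 40 counts. Both passed the filter only through the group where they were higher, and were not tested when a library of that group was left out. Relt fell by 0.51 (SE 0.12, adjusted p = 0.00524). Ltbr, Cd40, Tnfrsf4 and Tnfrsf11a were not called, with log2 fold changes of -0.03, 0.32, -0.29 and -0.3, and the remaining 11 were under the filter.

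Of 18 ligands 4 were tested and 4 called, in a contrast that called 42.1% of all genes, and 1 of them, Tnf, was tested only because it was high in METTL7A1 cells. Tnf, the ligand of Tnfrsf1a and Tnfrsf1b, was at 7, 5 and 5 counts in mock replicates 1, 2 and 3 and at 46, 61 and 51 counts in METTL7A1 replicates 1, 2 and 3. It rose from 0.263 ± 0.103 to 2.2 ± 0.238 cpm (SD, n = 3 each; log2 fold change 3.08, SE 0.31, adjusted p = 2.27e-05), but its mock libraries were under the filter, so that its passing already required a difference, and it was not tested when a METTL7A1 library was left out. Tnfsf9, the ligand of Tnfrsf9, rose from 113, 145 and 130 to 132, 260 and 282 counts (log2 fold change 0.66, SE 0.17, adjusted p = 0.00993). Tnfrsf9 itself was also higher in METTL7A1 cells, but it passed the filter only through that group and was chosen with its result known. The 2 values are set side by side as a description, and a link between them was not tested. Eda, the ligand of the ectodysplasin receptor, fell by 0.76 (SE 0.23, adjusted p = 0.0189), a call lost without METTL7A1 replicate 2 (-0.61) or mock replicate 3 (-0.59). Tnfsf15 was barely called (-0.4, SE 0.15, adjusted p = 0.0487), and its call was lost whichever library was left out, with log2 fold changes from -0.49 to -0.28.

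The ligands of the other receptors described here were too rare to test. Tnfsf10, which encodes TRAIL, had 0, 2 and 2 counts in mock and 4, 14 and 4 counts in METTL7A1 replicates 1, 2 and 3. Fasl had at most 2 counts in any library, Tnfsf12 (TWEAK) at most 1, and Lta, another ligand of Tnfrsf1a and Tnfrsf1b, 2 to 6 counts. Tnfsf12 also shares exon bases with Tnfsfm13 on the same strand. A count of 3, about the limit that a count of 0 allows, equals 0.102 to 0.164 cpm in these libraries, and this covers counting error only.

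Of 11 death signalling genes 10 were tested and 4 called (40%), 2 in each direction. The executioner caspase gene Casp6 rose by 0.76 on the log2 scale (SE 0.14, adjusted p = 0.00162), from 5.66 ± 0.692 to 9.6 ± 1.21 cpm (SD, n = 3 each). Bid, whose product links caspase-8 to mitochondria, rose by 0.22 (SE 0.07, adjusted p = 0.023). The call of Bid was lost without METTL7A1 replicate 2 (0.22), METTL7A1 replicate 3 (0.21) or mock replicate 1 (0.22), with the neighbour subtraction (0.18) and with a replicate block (0.22). The proximal genes were not called: Fadd at 0.07, Tradd at -0.18, Ripk1 at 0.07, Casp8 at 0.16 and Cflar (an inhibitor of caspase-8) at 0.12. Mlkl, at 0.06, was not called either. With the neighbour subtraction Casp8 and Mlkl were called. Ripk3, the kinase that acts on MLKL in necroptosis, had 0 counts in every library.

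Of 21 TRAF and ubiquitin genes, all tested, 14 were called (66.7%, against 42.1% of all genes), 5 higher and 9 lower, within -0.6 to 0.49 and with a median of -0.05. Traf1 fell by 0.6 (SE 0.09, adjusted p = 0.000304), and Birc3, which encodes the ubiquitin ligase cIAP2, fell by 0.58 (SE 0.08, adjusted p = 0.000217). Traf3 fell by 0.47 (SE 0.06, adjusted p = 0.000209). Tab3 and Tab1, whose products bind the kinase TAK1, rose by 0.49 (SE 0.07, adjusted p = 0.000271) and 0.42 (SE 0.09, adjusted p = 0.00305). Rbck1, a subunit of the linear ubiquitin ligase, rose by 0.31 (SE 0.07, adjusted p = 0.00392). None of the 21 passed the stricter thresholds. With the neighbour subtraction 8 of the 21 were called, while over all 13166 tested genes the calls fell from 5537 to 4138. Tab1 (0.17) and Rbck1 (0.09) lost their calls, and Tab3 (0.23) and Traf3 (-0.21) kept theirs at a smaller change.

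**Figure D4:**
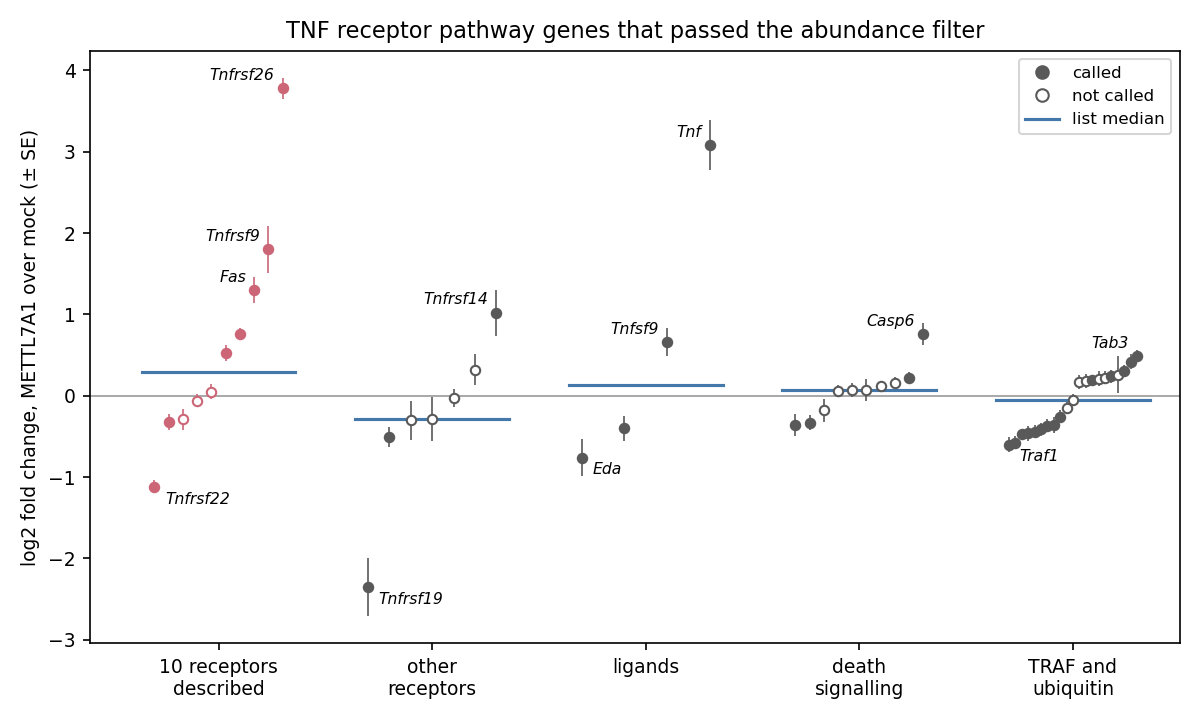
Log2 fold change (METTL7A1 over mock, bars give SE) of each tested gene, ordered within its list, with filled points for called genes and a blue line for the list median. Tnfrsf26 at 3.78, Tnf at 3.08 and Tnfrsf19 at -2.35 lie far from 0, whereas the TRAF and ubiquitin genes stay within -0.6 to 0.49.

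Finally, the genes whose log2 cpm followed Tnfrsf26 most closely over the 6 libraries were Atp11a (a phospholipid flippase gene, Pearson r = 0.9999), Pim1 (a kinase gene, r = 0.9995) and Il1b (the interleukin-1 beta gene, r = 0.9995). These 6 points fall into the 2 groups, share library depth and give r no p. The genes differed widely in size of change, with log2 fold changes of 0.58, 1.78 and 1.2 and 5813 to 14150 counts for Atp11a against 13 to 48 for Il1b. Il1b, at 0.711, 0.743 and 0.684 cpm in mock replicates 1, 2 and 3, passed the filter only through the METTL7A1 group. Its passing thus already required a difference, and it was not tested when a METTL7A1 library was left out.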

How the data were processed

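Total RNA of 6 4T1 libraries (stranded, ribosomal RNA depleted, NovaSeq) was analysed. The authors trimmed reads with BBDuk, aligned pairs to mm10 with STAR 2.5.3a, assigned them to Ensembl genes with featureCounts, and deposited raw counts with exon lengths. Strand and multi-mapping settings are not given in the sources used here, so genes with shared sequence may exchange reads. Groups and replicate numbers come from the sample titles. The 13166 genes that reached 1 cpm of the unscaled library total in 3 or more libraries were kept. Libraries were then scaled by TMM, and these genes were tested in edgeR 4.0.16 (R 4.3.3) with glmQLFit and glmQLFTest. Benjamini-Hochberg adjustment was made over all of them. SE is the log2 fold change divided by the square root of F. TPM was computed from counts and exon length. The 10 receptors and the lists were chosen with earlier results of these data known. Besides the receptors, the text names up to 3 called genes per direction and list, the ligands of the receptors, tested genes within 500 kb of the cluster, and the 3 genes most correlated with Tnfrsf26. Further genes of the lists were named after their values were seen, and some listed genes are not reported here. On simulated counts for 13024 genes, 96.9% of 96 genes changed by a log2 fold of 1 and 100% of 99 changed by 2 were recovered, with 6 false calls. The simulation used the same dispersion for every gene, no smaller changes and far fewer changed genes than were called here. It therefore checks the code and does not give the error rate of the calls in these data. Alternatives included limma 3.58.1 (voom) and DESeq2 1.42.0. Sequences were read with Biopython from GENCODE M21 and RefSeq.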

Additional observations from a re-analysis of the deposited data

How the results depend on the processing

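The directions of 8 of the 10 receptors were kept in each alternative that tested them (11 for Tnfrsf9, 16 for Tnfrsf22 and Tnfrsf23, 15 for the others), and Tnfrsf10b (-0.11 to 0.16) and Tnfrsf12a (-0.1 to 0.14), neither of them called, crossed 0. Of 148 log2 fold changes, 140 moved by less than the spread between replicates. The other 8 came from subtracting the median of the 40 nearest genes on the chromosome (Tnfrsf22 -1, Tnfrsf10b 0.16, Tnfrsf1a 0.68, Tnfrsf21 -0.11, its call lost, Tnfrsf1b 0.71 and Tnfrsf12a -0.1) and from summing the decoys. Tnfrsf26 lay between 3.7 and 3.91, and 5 to 7 receptors were called, with 3761 to 5988 genes called in all. Without the abundance filter 710 genes passed the stricter thresholds, and 5988 of all genes, 6 of the further receptors and 6 ligands were called. With at least 10 counts in every library 205 genes passed them, and 5363 genes and 2 ligands were called. The report had 326 genes at these thresholds, with 5537 genes, 3 further receptors and 4 ligands called. The neighbour subtraction left 8 called TRAF and ubiquitin genes, with 4138 of all genes called. Leaving out 1 library gave 1 (without METTL7A1 replicate 2) to 3 called ligands and 2 to 3 called death signalling genes. Calls over all genes fell too, to 3761 without METTL7A1 replicate 2 and 5373 without METTL7A1 replicate 1. The call of Tnfsf15 was lost in 14 of 15 alternatives. The replicate numbers did not pair the samples (correlations of deviations -0.14, 0.19 and -0.36). With them as a replicate block 7 receptors, 2 death signalling genes and 4810 of all genes were called. The cause of these shifts was not tested. Low counts limit Tnfrsf9, Tnfrsf14, Tnfrsf19 and Tnf most.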
